A study of Bos taurus with 14 samples.

Results

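The genes described here encode the eukaryotic translation initiation factors (eIFs) and the proteins that bind or modify them, among them the eIF4E repressor EIF4EBP1. Members were found by name alone, as genes whose symbol in the array annotation begins with EIF and a digit between 1 and 6. Transcripts are read on the array by probe sets, each made of several short oligonucleotides. Where several read the same gene, the one with the highest mean over all arrays was used. By this rule 40 of the 9155 genes with a single symbol on the array were members, read by 55 probe sets, and 14 of them had more than 1 probe set. All 40 gene identifiers were found in the RefSeq cattle gene table, and no symbol differed there. EIF4EBP3 shared its 2 probe sets with another gene, ANKHD1, and was therefore not counted. EIF4EBP2, EIF4ENIF1, EIF4G2, EIF2S2, EIF5A and EIF5B were not analysed here.

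Gene expression was measured in M. longissimus dorsi (LD) muscle, the loin muscle, of Charolais × Limousin crossbred heifers, with each animal on an Affymetrix bovine array of its own. One set of animals lived on a sward of grass and clover (outdoor/pasture-fed, n = 7), and the other stayed housed on concentrate and straw (indoor/concentrate-fed, n = 7). Diet and housing differed together between the groups and cannot be told apart, and the animals were managed in several pens or grazing groups that the sample labels do not name. The muscle is a mixture of cells, so that fewer cells of a type and less RNA per cell cannot be told apart either.

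Most mRNAs are translated after the cap-binding protein eIF4E, the scaffold eIF4G and the RNA helicase eIF4A, together called eIF4F, have assembled on the mRNA cap. The small ribosomal subunit arrives with eIF3, eIF1, eIF1A, eIF5 and eIF2, and eIF2 carries the initiator methionine tRNA. EIF4EBP1 binds eIF4E in place of eIF4G, and the kinase mTORC1, which responds to insulin and amino acids, releases it by phosphorylation. In skeletal muscle this switch is known for its response to feeding. Arrays measure mRNA, and neither the amount nor the phosphorylation of any protein was measured.

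The deposited values are log2 expression values from FARMS, a summary method that shrinks a probe set towards a constant when its probes do not vary together. Of all bovine probe sets 59.9% (of 24016) had almost the same value on every array. A probe set is called varying here when its SD over the 14 arrays was above 0.01. Of the 40 members 27 varied and 13 did not, and 11 of these 13 had an SD under 0.0001. The genes that did not vary were EIF1, EIF1AD, EIF2AK1, EIF2AK2, EIF2AK3, EIF2B2, EIF3A, EIF3E, EIF3J, EIF3K, EIF3M, EIF4A1 and EIF4H. For these genes the table holds a level but no usable information on a difference, and no statement about the feeding groups can be drawn from them.

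No member passed the adjusted threshold in the limma test (0 of 40), and across the array 0.0167% of all probe sets and 0.0109% of the named genes did. At an unadjusted p under 0.05, 2 members were higher in the outdoor/pasture-fed group (EIF4EBP1 and EIF1AD) and 5 were lower (EIF2B1, EIF3J, EIF4E, EIF4G1 and EIF6), where 6.03% of all named genes were higher and 8.15% lower. EIF1AD and EIF3J are among the members that did not vary, so that no weight is given to them here. Of the 27 varying members, 1 was higher and 4 were lower at this level, or 18.5% in all. Among all varying named genes 8.9% were higher and 12.7% lower at this level, or 21.6% in all, so that the share of members called was close to that of the array. The difference was above 0 in 9 of the 27 and below 0 in 18, or 66.7% below. Of all varying named genes 44.3% had a difference above 0 and 55.7% below. The 27 varying members had a median difference of -0.05 on the log2 scale (outdoor/pasture-fed minus indoor/concentrate-fed), against -0.02 over all varying named genes. The members' median was -0.06 to -0.02 with each animal left out, nearest 0 without outdoor/pasture-fed replicate 5. The groups overlapped for every member, whereas they did not overlap for 0.733% of the varying named genes. In 10 of the 27 the difference was past 0.1 in size, as in 50.4% of all varying named genes, and only that of EIF4EBP1 was past 0.5, as in 3.12%.

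**Figure D1:**
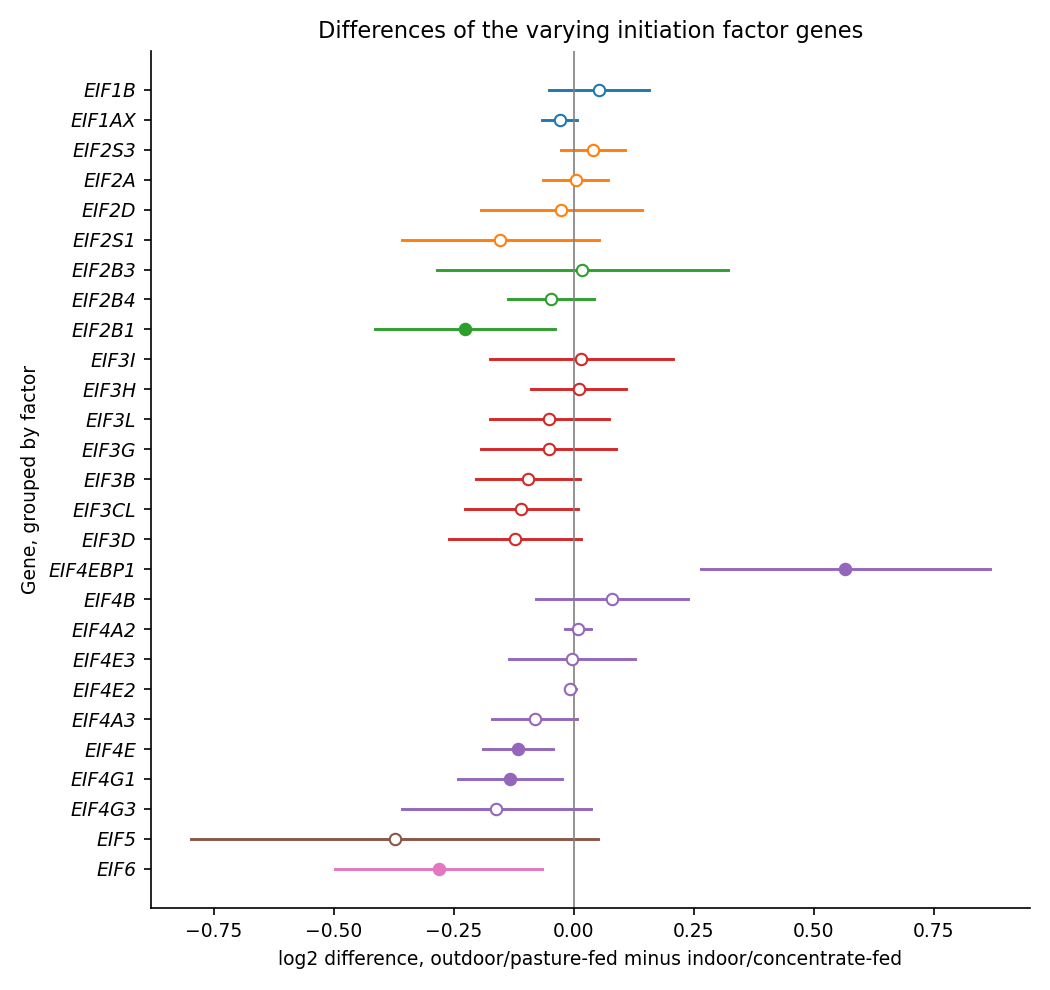
Log2 expression of the outdoor/pasture-fed group minus that of the indoor/concentrate-fed group (n = 7 each) for the 27 varying members, 1 row per gene, coloured by factor. Points are differences, lines their 95% intervals from the limma fit, and filled points have an unadjusted p under 0.05. EIF4EBP1 at 0.57 stands to the right of the others, which lie between -0.37 and 0.08.

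EIF4EBP1 encodes the repressor that holds eIF4E away from the scaffold. Its log2 value ranged between 8.11 and 8.85 with a median of 8.66 in the outdoor/pasture-fed group, and between 7.75 and 8.29 with a median of 7.996 in the indoor/concentrate-fed group. Outdoor/pasture-fed replicates 1, 2, 3, 6 and 7 lay above all indoor/concentrate-fed animals. The groups overlapped because outdoor/pasture-fed replicates 4 and 5, at 8.17 and 8.11, lay below indoor/concentrate-fed replicates 5 and 6, at 8.29 and 8.24. The means were 8.58 ± 0.31 in the outdoor/pasture-fed group and 8.01 ± 0.20 in the indoor/concentrate-fed group (SD, n = 7 each). EIF4EBP1 was thus 0.57 higher (SE 0.14), or 1.48-fold, with a 95% interval of 0.26 to 0.87. In limma its unadjusted p was 0.0015 and its adjusted p 0.195. The two-sided exact permutation test gave p = 0.00466, with an adjusted value of 0.233 over all probe sets, where the smallest p that 7 against 7 animals allow is 0.000583. By size its difference ranked 105 of 4641 varying named genes. EIF4EBP1 was among the genes the study chose on these same arrays, so that these values describe it and are not independent evidence of a difference. The study listed the same probe set as differentially expressed at its own adjusted threshold, with a larger fold change in the same direction. Why the values here are weaker was not tested. The study also reported a difference by quantitative PCR in a larger set of animals, which by its methods included those on the arrays. A figure caption of the study calls the animals of its PCR plot an independent cohort.

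EIF4E, the cap-binding protein that EIF4EBP1 represses, lay slightly lower in the outdoor/pasture-fed group, without passing the adjusted threshold. Its log2 value ranged between 11.67 and 11.79 (median 11.75) in the outdoor/pasture-fed group and between 11.78 and 12.01 (median 11.84) in the indoor/concentrate-fed group. The groups met only at their edges, where outdoor/pasture-fed replicates 2 and 4 lay at 11.79 and 11.78 and indoor/concentrate-fed replicate 4 at 11.78. The means were 11.74 ± 0.05 in the outdoor/pasture-fed group and 11.85 ± 0.08 in the indoor/concentrate-fed group (SD, n = 7 each), a difference of -0.12 (SE 0.03) with a 95% interval of -0.19 to -0.04. The exact permutation test gave p = 0.00175 and limma an adjusted p of 0.241. In limma the gene ranked 203 of 4641 varying named genes by p, but by size only 2059.

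The array carries EIF4E a second time, as a control transcript with separate probe sets for its 3′ part, its middle and its 5′ part, which are outside the members. All were lower in the outdoor/pasture-fed group, with differences of -0.16 for the 3′ part (exact permutation p = 0.0146, adjusted p = 0.0291 over 6 comparisons), -0.20 for the middle (p = 0.0688 in the exact test, adjusted 0.103) and -0.24 for the 5′ part (p = 0.0903 in the exact test, adjusted 0.108). Over the 14 animals the EIF4E probe set followed all of them, with Pearson's r of 0.93, 0.92 and 0.91 and Spearman's rho of 0.91, 0.85 and 0.88 for the 3′ part, the middle and the 5′ part. The largest adjusted p of these correlations was 0.00057 by permutation over 6 relations between probe sets of one gene. Without the 2 animals farthest from the median, r was 0.83, 0.78 and 0.79. The correlations within the outdoor/pasture-fed group were 0.83, 0.87 and 0.94, and within the indoor/concentrate-fed group 0.93, 0.96 and 0.92. These probe sets read the same RNA on the same arrays and so do not replicate the animals.

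The 5′ part of EIF4E relative to its 3′ part can fall when RNA is degraded. The authors amplified the RNA with a chimeric primer mix, and how far this ratio follows degradation here was not tested. The ratio was -2.00 ± 0.13 in the outdoor/pasture-fed group and -1.92 ± 0.21 in the indoor/concentrate-fed group (SD, n = 7 each, exact permutation p = 0.404). The highest ratios were those of indoor/concentrate-fed replicates 2 and 7, at -1.62 and -1.63, and the lowest that of outdoor/pasture-fed replicate 3, at -2.18. Indoor/concentrate-fed replicate 2 also had the highest EIF4E value. Without that animal the EIF4E difference was -0.09. Of the 5 other control transcripts on the array, GAPD, actin and cyclophilin had a constant 5′ or 3′ value. The 5′ to 3′ ratio of ef1a differed between the groups by 0.22 (exact permutation p = 0.0973, adjusted p = 0.146 over the 3 transcripts that varied at both ends), and that of GST by -0.08 (exact permutation p = 0.0711, adjusted p = 0.146). Indoor/concentrate-fed replicate 2 was not high for these, at 1.74 for ef1a and 0.922 for GST, where it was the lowest of its group. Replicate 7 of that group had the group's highest ef1a value, at 1.91, and lay at 1.02 for GST. The part of RNA integrity in the EIF4E difference was not tested.

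**Figure D2:**
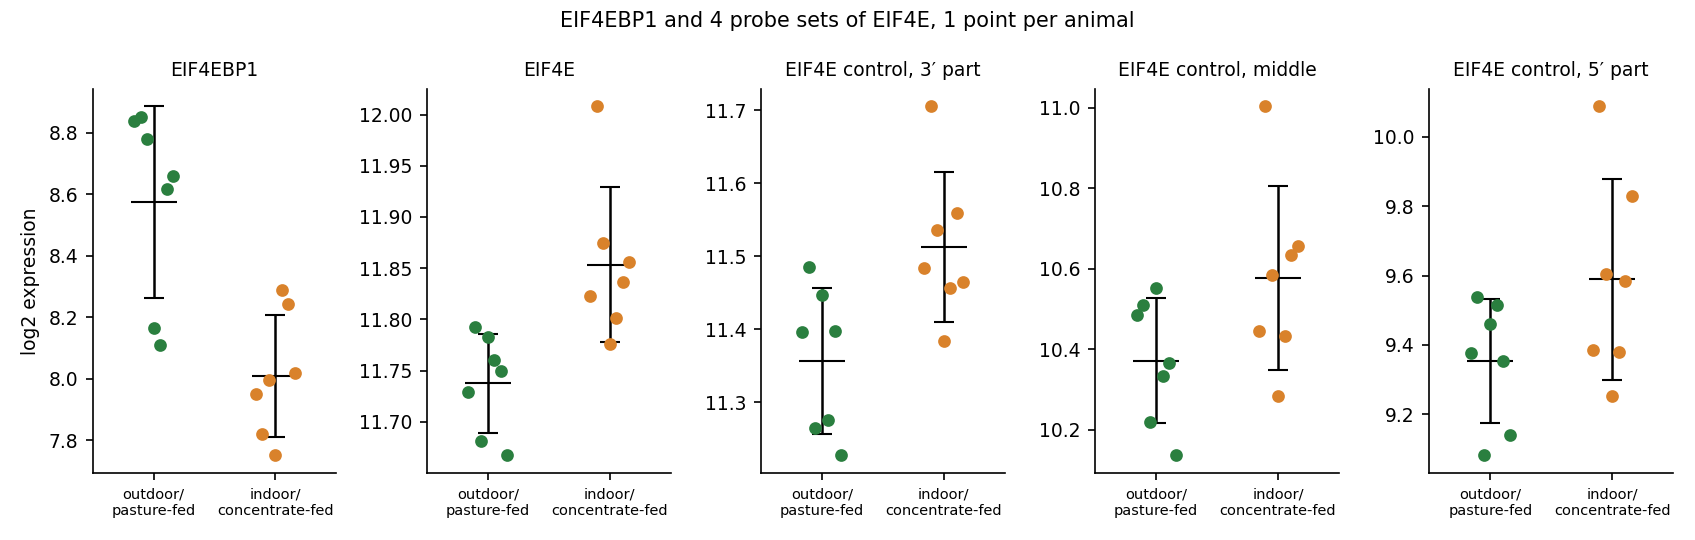
Log2 expression of EIF4EBP1, of the EIF4E member probe set and of the 3 EIF4E control probe sets, each panel on its own axis, with 1 point per animal in order of replicate number. The outdoor/pasture-fed group is on the left and the indoor/concentrate-fed group on the right, and bars give the mean ± SD (n = 7 each). EIF4EBP1 was higher by 0.57 in the outdoor/pasture-fed group, and the 4 EIF4E probe sets differed by -0.24 to -0.12.

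EIF4EBP1 was then set against EIF4E, the protein it holds. Levels of different probe sets cannot be compared, but the log2 value of EIF4EBP1 minus that of EIF4E can be compared between animals. It ranged between -3.65 and -2.89 in the outdoor/pasture-fed group and between -4.19 and -3.51 in the indoor/concentrate-fed group, with means of -3.16 ± 0.33 in the outdoor/pasture-fed group and -3.84 ± 0.23 in the indoor/concentrate-fed group (SD, n = 7 each). The balance was 0.68 higher in the outdoor/pasture-fed group (SE 0.15), a 1.60-fold difference, with an exact permutation p of 0.0035 and an adjusted p of 0.0105 over 6 comparisons. The same outdoor/pasture-fed replicates 4 and 5, at -3.62 and -3.65, overlapped with indoor/concentrate-fed replicates 5 and 6, at -3.51 and -3.59. With the mean of the 3 control probe sets in place of EIF4E the difference was 0.76 (SE 0.18, exact permutation p = 0.00233), an alternative chosen after seeing the data. Most of this difference is the EIF4EBP1 difference, which the study had selected, and the same reservation applies.

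Within the groups no relation between the pair was detected. Pearson's r between EIF4EBP1 and EIF4E was -0.37 in the outdoor/pasture-fed group (exact permutation p = 0.417, adjusted 0.562 over 2 relations) and -0.29 in the indoor/concentrate-fed group (exact permutation p = 0.562, adjusted 0.562), n = 7 each. Spearman's rho was -0.07 (exact permutation p = 0.906) in the outdoor/pasture-fed group and -0.04 (exact permutation p = 0.963) in the indoor/concentrate-fed group, both with an adjusted p of 0.963. Without the 2 animals farthest from the median of EIF4EBP1, r was 0.37 in the outdoor/pasture-fed group and -0.02 in the indoor/concentrate-fed group.

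**Figure D3:**
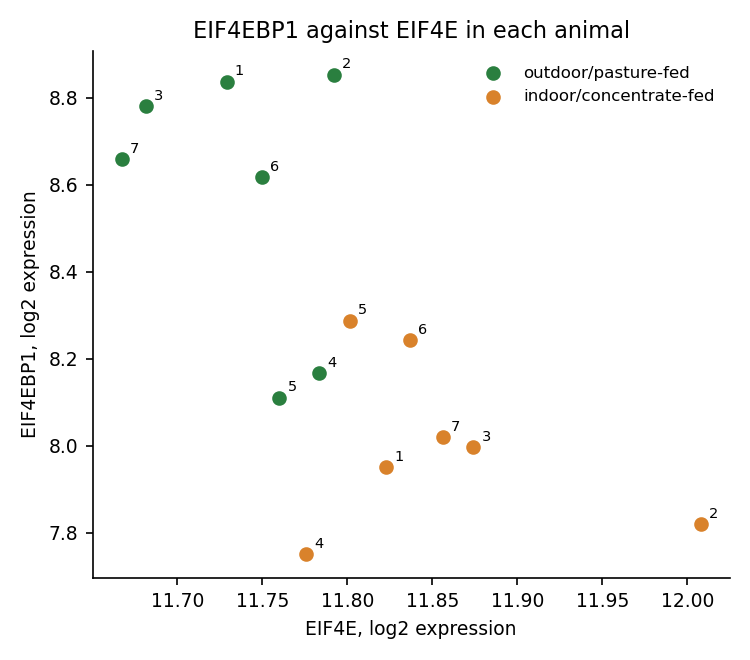
Log2 expression of EIF4EBP1 (vertical axis) against that of EIF4E (horizontal axis), 1 point per animal with its replicate number, green for the outdoor/pasture-fed group and orange for the indoor/concentrate-fed group. Outdoor/pasture-fed animals 4 and 5 lie among the indoor/concentrate-fed animals on the vertical axis, and indoor/concentrate-fed animal 2 lies farthest right, at 12.01.

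Genes of another cell type differed in the same direction as EIF4EBP1. Of the 6 endothelial markers looked at, VWF did not vary and the other 5 (PECAM1, CDH5, TEK, CLDN5 and KDR) were all higher in the outdoor/pasture-fed group at an unadjusted p under 0.05, by 0.23 to 0.59, with none past the adjusted threshold, where 8.9% of all varying named genes were higher at this level. The mean of the 6 ranged between 8.45 and 8.80 in the outdoor/pasture-fed group and between 8.03 and 8.46 in the indoor/concentrate-fed group, a difference of 0.35 (exact permutation p = 0.00117, adjusted p = 0.00932 over 8 marker lists). It was the only one of the 8 lists with an adjusted p under 0.05. The lists were chosen with earlier results of these data known, so these values are a description. The part of endothelial content in the EIF4EBP1 difference was not tested. The mean of 8 markers of muscle fibres was high in every animal, 13.68 to 13.73 in the outdoor/pasture-fed group and 13.56 to 13.72 in the indoor/concentrate-fed group, as the tissue label says. Of these 8, 4 varied, 3 with a difference above 0 and 1 below. MYH1, a fast myosin, was higher by 0.14 in the outdoor/pasture-fed group (limma adjusted p 0.148). The slow fibre genes TNNT1 and MYH7 differed by 0.13 (SE 0.10) and 0.11 (SE 0.09), and DES by -0.06 (SE 0.07). Their limma adjusted p were 0.689, 0.705 and 0.834. No marker of adipocytes, leukocytes, red blood cells, fibroblasts, smooth muscle or satellite cells reached an unadjusted p under 0.05.

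The EIF4 group had 11 members, of which 9 varied, 3 with a difference above 0 and 6 below, and a median of -0.01. Without EIF4EBP1 the median of the other 8 was -0.04. The scaffolds that eIF4E docks on had differences below 0. EIF4G1, the main scaffold, ranged between 9.36 and 9.59 (median 9.51) in the outdoor/pasture-fed group and between 9.49 and 9.77 (median 9.60) in the indoor/concentrate-fed group. Outdoor/pasture-fed replicates 2, 5 and 6 lay below all indoor/concentrate-fed animals and the others overlapped with them. The difference was -0.13 (SE 0.05, limma unadjusted p 0.0204, adjusted 0.332). EIF4G3, a second scaffold, differed by -0.16 (SE 0.09) and by -0.17 (SE 0.08) on its other varying probe set, with adjusted p of 0.534 and 0.446 in limma. Over the 14 animals the 2 EIF4G3 probe sets correlated with r = 0.75 and rho = 0.75 (adjusted permutation p = 0.00191 and 0.00366), and r was 0.74 without the 2 animals farthest from the median. Within the outdoor/pasture-fed group r was 0.45, and within the indoor/concentrate-fed group 0.93.

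The cap-binding relatives of EIF4E showed little. EIF4E2, which binds the cap but does not recruit eIF4G, averaged 9.97 ± 0.01 in the outdoor/pasture-fed group and 9.97 ± 0.01 in the indoor/concentrate-fed group (SD, n = 7 each), a difference of -0.01 with a 95% interval of -0.02 to 0.0037. Its second probe set differed by -0.14 (SE 0.08, limma adjusted p 0.565) and correlated little with the first (r = 0.24, adjusted permutation p = 0.412, rho = 0.16, adjusted permutation p = 0.586, n = 14, r = 0.51 without the 2 animals farthest from the median). Between these 2 probe sets r was 0.06 within the outdoor/pasture-fed group and 0.16 within the indoor/concentrate-fed group. EIF4E3, a further cap-binding relative, averaged 10.88 ± 0.12 in the outdoor/pasture-fed group and 10.88 ± 0.10 in the indoor/concentrate-fed group, with a 95% interval of the difference of -0.14 to 0.13. The chosen EIF4E2 probe set had an SD of 0.0105 over the 14 animals, barely past the limit for varying, so that little can be read from it.

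Among the helicases and their helpers, EIF4A2 averaged 12.51 ± 0.03 in the outdoor/pasture-fed group and 12.51 ± 0.02 in the indoor/concentrate-fed group (SD, n = 7 each), and its interval of -0.02 to 0.04 was the narrowest of the 3 that varied here. EIF4A3, a relative that belongs to the exon junction complex and marks spliced mRNA, differed by -0.08 (SE 0.04, limma adjusted p 0.475). EIF4B, which stimulates the helicase, differed by 0.08 (SE 0.07, limma adjusted p 0.745), by 0.04 without outdoor/pasture-fed replicate 1 and by 0.12 without indoor/concentrate-fed replicate 2. EIF4A1 and EIF4H did not vary on their chosen probe sets. None of these values separated the groups.

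The EIF2 group, which carries or substitutes for the carrier of the initiator tRNA, had 4 members, all varying, 2 above 0 and 2 below. EIF2S1, the alpha subunit that stress kinases phosphorylate, ranged between 10.34 and 10.57 (median 10.47) in the outdoor/pasture-fed group and between 10.38 and 11.02 (median 10.55) in the indoor/concentrate-fed group. Its difference of -0.15 (SE 0.09, limma adjusted p 0.581) came with a wider spread indoors, where replicates 2 and 7 lay at 11.02 and 10.89, above all other animals. Without indoor/concentrate-fed replicate 2 it was -0.09. EIF2S3, the gamma subunit that binds GTP, differed by 0.04 (SE 0.03), and EIF2A and EIF2D, alternative tRNA carriers, by 0.0035 and -0.03.

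EIF2B is the exchange factor that reloads eIF2 with GTP. EIF2B1, its alpha subunit, ranged between 8.34 and 8.60 (median 8.53) in the outdoor/pasture-fed group and between 8.46 and 8.96 (median 8.75) in the indoor/concentrate-fed group. Indoor/concentrate-fed replicates 1, 2, 3, 4 and 7 lay above all outdoor/pasture-fed animals, and replicates 5 and 6, both at 8.46, lay among them. The difference was -0.23 (SE 0.09), with an unadjusted p of 0.0211 and an adjusted p of 0.336 in limma. EIF2B4, the delta subunit, differed by -0.05 (SE 0.04), and EIF2B3, the gamma subunit, by 0.02 (SE 0.14). EIF2B3 had one of the widest spreads of the members, between 7.85 and 8.70 in the indoor/concentrate-fed group, against 8.18 to 8.49 in the outdoor/pasture-fed group. EIF2B2, the beta subunit, did not vary.

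The 3 eIF2 alpha kinases on the array, EIF2AK1 (regulated by haem), EIF2AK2 (activated by double-stranded RNA) and EIF2AK3 (of the endoplasmic reticulum), had constant values of 7.80, 7.91 and 5.85 on their chosen probe sets. Another EIF2AK2 probe set did vary and differed by 0.06 (SE 0.06, limma adjusted p 0.753). The amino acid sensing kinase EIF2AK4 was not analysed here.

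The EIF3 group, the subunits of the large factor that links the small ribosomal subunit to eIF4G, had 12 members, of which 7 varied, 2 above 0 and 5 below, with a median of -0.05, and of -0.09 without indoor/concentrate-fed replicate 6. None of the 7 reached an unadjusted p under 0.05. EIF3D, a subunit that can itself bind the cap, averaged 10.88 ± 0.07 in the outdoor/pasture-fed group and 11.00 ± 0.15 in the indoor/concentrate-fed group (SD, n = 7 each), a difference of -0.12 (SE 0.06, limma adjusted p 0.491). EIF3CL, named in the annotation as a copy of EIF3C, averaged 11.06 ± 0.08 in the outdoor/pasture-fed group and 11.17 ± 0.12 in the indoor/concentrate-fed group, a difference of -0.11 (SE 0.05, limma adjusted p 0.473). Whether its probes also read EIF3C was not tested. EIF3B, EIF3G and EIF3L differed by -0.10, -0.05 and -0.05, and EIF3H and EIF3I by 0.01 and 0.02. The 95% intervals of the varying EIF3 genes reached no lower than -0.26, for EIF3D, and no higher than 0.21, for EIF3I.

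EIF5, the factor that makes eIF2 hydrolyse its GTP once the start codon is found, had the second largest difference of the members in size. It ranged between 11.19 and 11.90 (median 11.38) in the outdoor/pasture-fed group and between 11.40 and 12.52 (median 11.81) in the indoor/concentrate-fed group. Indoor/concentrate-fed replicates 2 and 7, at 12.52 and 12.31, lay above all others, and the remaining animals of both groups overlapped. The difference was -0.37 (SE 0.20, limma adjusted p 0.501), and its 95% interval of -0.80 to 0.05 included 0. Its second probe set gave -0.35 (SE 0.21) and followed the first with r = 0.97 and rho = 0.97 (adjusted permutation p = 3.0e-05 and 6.0e-05, n = 14; r = 0.96 without the 2 animals farthest from the median). The spread between animals was therefore measured by both probe sets alike. Without indoor/concentrate-fed replicate 2 the EIF5 difference was -0.27.

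EIF6 keeps the large ribosomal subunit from joining too early and also takes part in making it. Its log2 value ranged between 9.08 and 9.49 (median 9.19) in the outdoor/pasture-fed group and between 9.29 and 9.89 (median 9.43) in the indoor/concentrate-fed group. Outdoor/pasture-fed replicates 1, 2, 3, 4 and 5 lay below all indoor/concentrate-fed animals, replicate 2 only just. The difference was -0.28 (SE 0.10), or 0.823-fold, with an exact permutation p of 0.0122 and a limma adjusted p of 0.300. Without indoor/concentrate-fed replicate 2 it was -0.22.

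The EIF1 group had 4 members, of which EIF1AX and EIF1B varied. Its scanning factors keep the ribosome open until a start codon is met, whereas EIF1AD takes part in maturation of the small ribosomal subunit. EIF1AX differed by -0.03 (SE 0.02, limma adjusted p 0.543) and EIF1B, a close copy of EIF1, by 0.05 (SE 0.05, limma adjusted p 0.749). Probes for EIF1 and EIF1B may read both transcripts.

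Several members shared the animals in which they were high. Indoor/concentrate-fed replicate 2 had the highest value of its group for 11 of the 27 varying members and the lowest for none, and lay 0.16 above the mean of all animals at the median member. Indoor/concentrate-fed replicate 7 lay 0.11 above, and indoor/concentrate-fed replicate 6 lay 0.06 below and was the lowest of its group for 10 members. In the outdoor/pasture-fed group the medians were closer together, between -0.08 in replicate 3 and 0.01 in replicate 7. These counts and deviations were not taken over all varying named genes, so whether they are particular to the members was not tested. EIF2S1, EIF2B1, EIF5 and EIF6 were all high in indoor/concentrate-fed replicates 2 and 7. The median of the whole array lay between 6.77 and 6.84. It cannot show whether an array was shifted, since values were quantile normalised and 59.9% of all probe sets hardly varied. Indoor/concentrate-fed replicates 2 and 7 also had the highest 5′ to 3′ values of EIF4E given above. For ef1a and GST replicate 2 was not among the highest, whereas replicate 7 had the highest ef1a value of its group. The part of RNA integrity in this pattern was not tested.

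**Figure D4:**
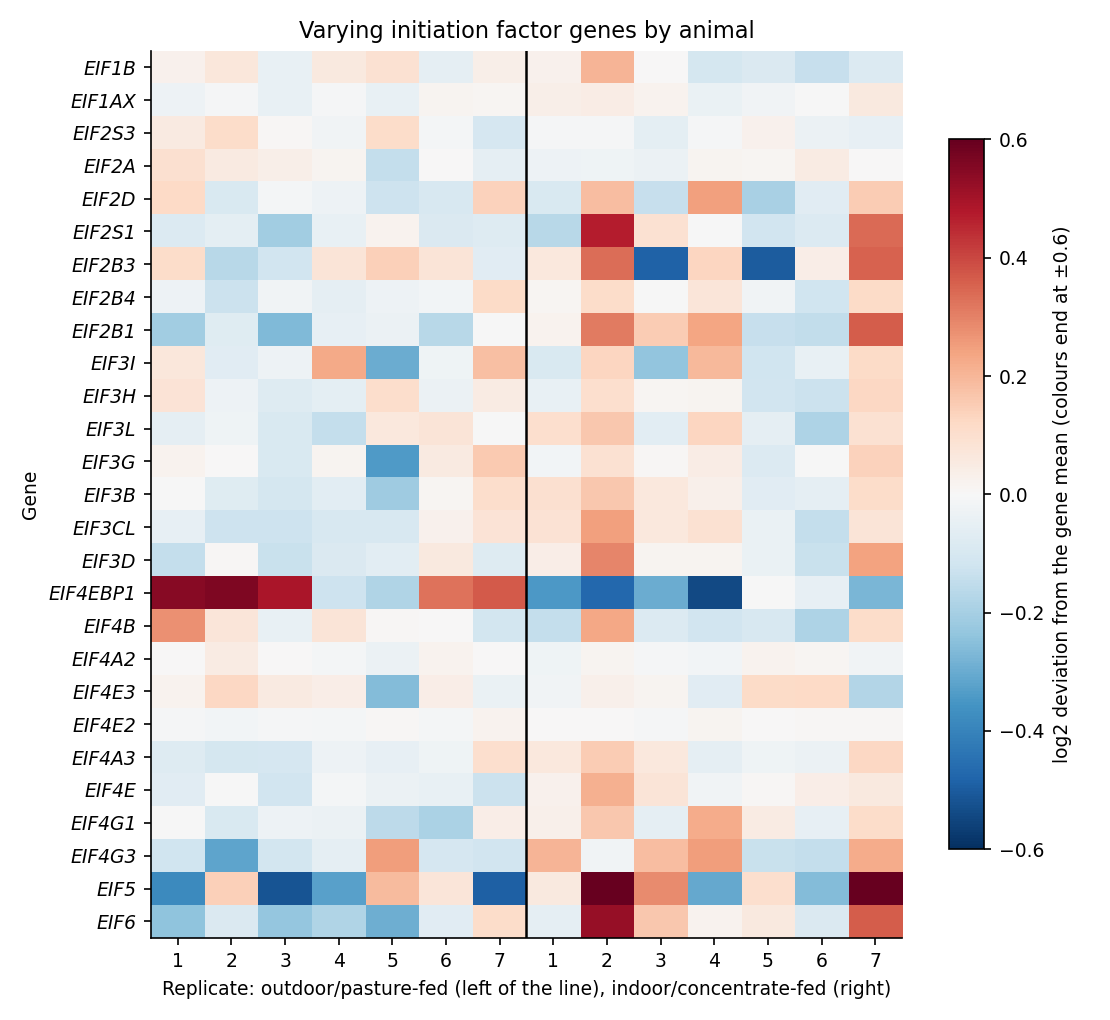
Deviation of each varying member (rows, ordered by factor) from its own mean over the 14 animals, in log2 units, for the 7 outdoor/pasture-fed animals (left of the line) and the 7 indoor/concentrate-fed animals (right). Red is above and blue below the mean, and colours end at ±0.6. EIF4EBP1 is red on the left in columns 1, 2, 3, 6 and 7 and blue or near white on the right, and columns 2 and 7 on the right are red for many other genes.

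The count of members that were lower at an unadjusted p under 0.05 depended on which animals were kept. It was 10 of the 27 varying members without indoor/concentrate-fed replicate 6, the animal that was lowest for many members, where 15.1% of all varying named genes were lower. It was 8 without outdoor/pasture-fed replicate 7 (13% of all), 7 without indoor/concentrate-fed replicate 5 (13.9% of all) and 7 without indoor/concentrate-fed replicate 4 (11.5% of all). Leaving out any other animal gave 4 or 5. No member passed the adjusted threshold in any of these fits.

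The genes around initiation were read as lists of their pathways, none with a gene past the adjusted threshold. Of the mTORC1 list, the kinase complex that phosphorylates EIF4EBP1 and its inputs, 29 genes were measured and 20 varied, 7 above 0 and 13 below. Among all varying named genes 55.7% were below 0 and 12.7% were lower at an unadjusted p under 0.05. Only RHEB, the GTPase that activates mTORC1, reached an unadjusted p under 0.05. It averaged 11.23 ± 0.12 in the outdoor/pasture-fed group and 11.48 ± 0.23 in the indoor/concentrate-fed group (SD, n = 7 each), a difference of -0.25 (SE 0.10, limma adjusted p 0.369). DDIT4L, an mTORC1 inhibitor of muscle, differed by 0.46 (SE 0.28, limma adjusted p 0.562) and DEPTOR, another inhibitor, by 0.24 (SE 0.11, limma adjusted p 0.456). TBC1D7, a subunit of the TSC complex that inhibits mTORC1, differed by 0.25 (SE 0.13, limma adjusted p 0.486). The inhibitors DDIT4, AKT1S1 and SESN1 went the other way or differed little, by -0.13 (SE 0.12), -0.12 (SE 0.07) and 0.02 (SE 0.11).

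The list of eIF4E kinases and of phosphatases around initiation had 10 measured genes and 5 varying, all below 0, of which PPP1R15A and PPP1CA reached an unadjusted p under 0.05. Of all varying named genes 55.7% were below 0 and 12.7% were lower at this level. PPP1R15A, the stress-induced subunit that directs a phosphatase to eIF2 alpha, averaged 6.82 ± 0.36 in the outdoor/pasture-fed group and 7.65 ± 0.53 in the indoor/concentrate-fed group (SD, n = 7 each). Its difference of -0.82 (SE 0.24, limma adjusted p 0.242) was larger in size than that of any member. PPP1CA, a catalytic subunit of that phosphatase, differed by -0.10 (SE 0.04, limma adjusted p 0.417).

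The ATF4 response, the genes turned on when eIF2 alpha is phosphorylated, had 23 measured genes and 13 varying, 2 above 0 and 11 below. Only SARS1, the seryl-tRNA synthetase, reached an unadjusted p under 0.05, with a difference of -0.32 (SE 0.10, limma adjusted p 0.247). Of all varying named genes 55.7% were below 0 and 12.7% were lower at this level. ATF3, a stress transcription factor, differed by -0.85 (SE 0.42, limma adjusted p 0.476), and ATF4 itself did not vary.

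Elongation and termination factors had 11 measured genes and 9 varying, 3 above 0 and 6 below, where 55.7% of all varying named genes were below. At an unadjusted p under 0.05, 4 of the 9 were lower, where 12.7% of all varying named genes were lower. These were EEF1A2, the elongation factor of muscle and nerve, at -0.26 (SE 0.10), the termination factors GSPT1 at -0.33 (SE 0.14) and ETF1 at -0.20 (SE 0.08), and EEF1E1, a protein of the tRNA synthetase complex, at -0.15 (SE 0.07). Their limma adjusted p lay between 0.339 and 0.416. EEF2K also reached an unadjusted p under 0.05 in limma but did not vary, so that no weight is given to it. Of the poly(A) binding and cap partners, 8 were measured and 5 varied, 3 above 0 and 2 below. PABPN1, the nuclear poly(A) binding protein, reached an unadjusted p under 0.05 with a difference of 0.04 (SE 0.02, limma adjusted p 0.423). Among all varying named genes 8.9% were higher at this level and 44.3% had a difference above 0.

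**Figure D5:**
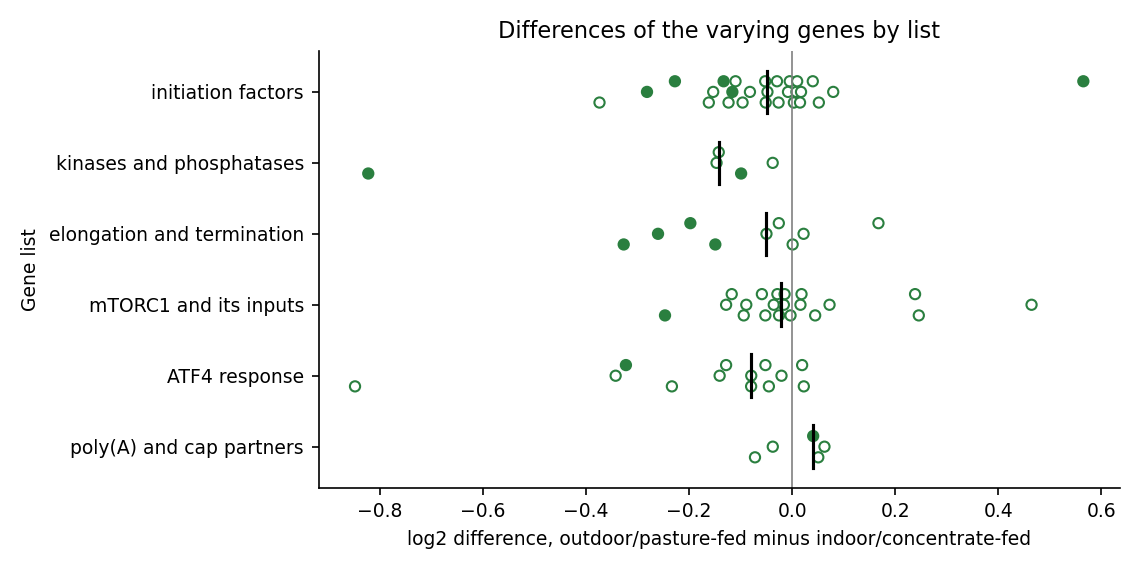
Log2 expression of the outdoor/pasture-fed group minus that of the indoor/concentrate-fed group (n = 7 each) for every varying gene of the initiation factors and of 5 lists around them, 1 point per gene. Filled points have an unadjusted p under 0.05, black lines are list medians, and the vertical scatter has no meaning. PPP1R15A at -0.82 and ATF3 at -0.85 lie farthest left, and EIF4EBP1 at 0.57 farthest right.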

How the data were processed

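Each array holds the cDNA of 1 heifer. The authors amplified total RNA and used the qFarms function, which normalises by quantiles before FARMS, to reach the log2 values deposited. The deposited table also holds the probe sets that the authors later filtered out as uninformative, so p-values were adjusted over more of them here. Depth does not apply to arrays, and their number limits the precision.

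The 112 control probe sets were left out. Groups come from the sample titles. The limma package (3.58.1, in R 4.3.3) gave the difference, with outdoor/pasture-fed as the minuend, by lmFit and eBayes over all 24016 probe sets. Its p-values were adjusted by Benjamini-Hochberg and called under 0.05. Single values were tested with two-sided exact permutation over all 3432 assignments. Correlations over 14 animals used 100000 resamples. Scripts were tested on simulated data. p-values measure the spread between animals and treat them as independent.

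By the platform annotation 13292 probe sets carried a single symbol, 86 carried several, and 10638 carried no symbol. Named individually were the EIF4 genes, the eIF2 subunits and kinases, the 3 genes of smallest p per factor, and list genes at an unadjusted p under 0.05. Further EIF3, ATF3, DDIT4L, DEPTOR, TBC1D7, DDIT4, AKT1S1, SESN1, TNNT1, MYH7 and DES values were named after they were seen. Members and lists were chosen with earlier results of these data known. No files or labels name a batch, and no 2 arrays held identical values. The alternatives tried were the replicate number as a block, an intensity trend or a robust fit in the prior, a filter on SD or on level, a further quantile normalisation, centred arrays, array weights, other ways to choose a gene's probe set, and each array left out in turn.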

Additional observations from a re-analysis of the deposited data

Results flagged for a closer look

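Among 70 groups of 7 animals examined (the 31 varying probe sets of members, the 3 EIF4E controls and EIF4EBP1 minus EIF4E, in each feeding group), 4 held an animal that stood apart from its group by Dixon's criterion, where chance alone gives about 1 in 20, or 3.5. EIF4E was 12.01 in indoor/concentrate-fed replicate 2, with the next animal at 11.87. EIF4A3 was 10.27 in outdoor/pasture-fed replicate 7, with the next at 10.14. EIF4E3 was 10.62 in outdoor/pasture-fed replicate 5, with the next at 10.84. The second EIF4G3 probe set was 7.83 in outdoor/pasture-fed replicate 7, with the next at 8.10.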

How the results depend on the processing

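The count of members past the adjusted threshold was 0 under every alternative. EIF4EBP1 kept a difference of 0.56 to 0.58 with limma adjusted p of 0.0692 (varying probe sets only) to 0.342 (replicate block), and 0.52 to 0.64 with each animal left out. EIF4E differed by -0.12 to -0.10 on its own probe set, by -0.20 when the mean of the 3 control probe sets stood for it (exact permutation p = 0.0443, chosen after seeing the data), and by -0.13 to -0.09 with each animal left out. EIF4EBP1 minus EIF4E was 0.67 to 0.76, with an exact permutation p of 0.00233 to 0.0313, and 0.62 to 0.76 with each animal left out. The largest of these p-values came from the paired form. Replicate numbers did not pair the animals, since only 2 of 7 same-numbered pairs deviated together with a correlation above 0.1 (-0.18 to 0.24), and with the number as a block the members past the adjusted threshold remained 0.

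The count of members higher at an unadjusted p under 0.05 was 1 instead of 2 with trended or robust priors, either filter, renewed quantile normalisation or centring, and 2 to 3 with each animal left out. The lower count was 4 to 11 with each animal left out. The EIF4 median was -0.0818 with the probe set of highest SD, -0.0409 with the mean of all probe sets, and -0.0513 to -0.00729 with each animal left out. The median of all varying members was -0.00318 with renewed quantile normalisation and -0.00414 with centring, and that of EIF3 -0.0225 and -0.00670, because 36 and 40 members then passed the SD limit. Over the same 27 members the medians were -0.0407 and -0.0519, and over the same 7 EIF3 genes -0.0449 and -0.0563. The EIF3 median was -0.0866 to -0.0406 with each animal left out. The poly(A) and cap partner median was -0.0375 with the probe set of highest SD, against 0.0409.

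Differences near 0 changed sign. With renewed quantile normalisation EIF4A2 was -0.00493, EIF4E2 0.000716 and EIF4E3 0.00307. With centring EIF2A was -0.000599, and with array weights EIF4E3 was 0.0151. With each animal left out EIF2A was -0.0124 to 0.0275, EIF2B3 -0.0641 to 0.0778, EIF2D -0.0612 to 0.0123, EIF3G -0.0824 to 0.000121, EIF3H -0.0104 to 0.0310, EIF3I -0.0230 to 0.0664 and EIF4E3 -0.0344 to 0.0382. The cause of these changes was not tested. EIF4EBP1 minus EIF4E was not rerun for priors or filters, since the exact test has no prior and both probe sets passed both filters.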
